A study of Mus musculus with 8 samples.

Results

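Hes1, Hes5, Hes6, Hey1, Hey2, Heyl and Nrarp are genes of the Notch response, and their transcript levels were read in cultured mouse muscle stem cells with and without a short pulse of a bone morphogenetic protein (BMP). The 7 genes were chosen by name from a table of 55223 gene loci, each of them matching 1 locus. Levels are in TPM, the length-corrected share of a library's transcripts that a gene takes, so different genes can be compared with each other. A mean of at least 0.5 TPM over all libraries was required for testing. Hes1, Hes6, Hey1, Heyl and Nrarp met it, so 5 of the 7 were tested among 16908 loci, and Hes5 and Hey2 are described by their values.

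The cells were muscle stem cells, the satellite cells of skeletal muscle, from muscle of female wild-type C57BL/6J mice of 6 to 8 weeks. Every culture, with or without BMP, had first expanded on Matrigel for 2 days. Every culture then spent 6 h in serum-free medium with BMPR-IA-Fc at 200 ng/ml, a soluble receptor that captures BMPs. In the first experiment, cultures of cell isolations 48 and 54 were given BMP4 at 100 ng/ml for 1 h (BMP4) or the carrier solution, 4 mM HCl with 0.1% BSA (vehicle_a). In the second experiment, cultures of isolations 75 and 77 were given BMP6 at 100 ng/ml for 1 h (BMP6) or the same carrier (vehicle_b). Each of the 4 groups has 2 libraries, replicate 1 from isolation 48 or 75 and replicate 2 from isolation 54 or 77. Each ligand has its own experiment, so ligand and experiment cannot be told apart. How many mice gave an isolation is not given in the sources used here, so the p-values speak only of the spread among these cultures.

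When a Notch receptor is cut after binding a ligand on a neighbouring cell, its intracellular part enters the nucleus and turns the DNA-binding protein RBPJ from a repressor into an activator. Hes and Hey genes are the best known RBPJ targets. They encode basic helix-loop-helix repressors, of which the Hes type is known to recruit Groucho (TLE) co-repressors. In satellite cells Notch signalling is known to keep the cells undifferentiated and to oppose MyoD and myogenin. Nrarp, also an RBPJ target, encodes an ankyrin-repeat protein that binds the Notch intracellular domain and limits its activity. Hes6 is the odd member: it is known as an antagonist of Hes1 that myogenic and neurogenic helix-loop-helix factors induce.

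The promoters are shown because the labelled stimulus is a BMP while the genes are known for RBPJ, whose core site reads TGGGAA. RefSeq windows on build GRCm38.p6 were matched for 4 of the 7 genes, Hes5, Hes6, Hey2 and Nrarp. Each window printed is the 250 bases before the RefSeq start, 5′ to 3′ on the gene's strand, and capitals mark TGGGAA or its complement TTCCCA.
Hes5, chr4:154960673-154960922, plus strand: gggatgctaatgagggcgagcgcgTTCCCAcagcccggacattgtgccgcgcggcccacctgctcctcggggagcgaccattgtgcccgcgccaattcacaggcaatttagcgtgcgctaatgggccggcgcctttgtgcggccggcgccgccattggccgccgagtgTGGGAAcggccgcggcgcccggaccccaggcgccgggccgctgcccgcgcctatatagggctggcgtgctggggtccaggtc
Hey2, chr10:30842784-30843033, minus strand: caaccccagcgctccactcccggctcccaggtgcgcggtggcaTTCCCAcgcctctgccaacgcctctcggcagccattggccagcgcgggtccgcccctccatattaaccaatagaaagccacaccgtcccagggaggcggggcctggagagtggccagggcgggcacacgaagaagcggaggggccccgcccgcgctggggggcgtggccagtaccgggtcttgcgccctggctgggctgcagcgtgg
Hes6, chr1:91413223-91413472, minus strand: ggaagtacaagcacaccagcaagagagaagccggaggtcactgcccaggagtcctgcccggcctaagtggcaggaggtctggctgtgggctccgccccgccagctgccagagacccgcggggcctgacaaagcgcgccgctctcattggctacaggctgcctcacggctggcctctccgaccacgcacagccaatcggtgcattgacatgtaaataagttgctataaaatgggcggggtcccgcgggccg

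Hes5 and Hey2 are printed because they hold the RBPJ core, and Hes6 for contrast because it does not. The Hes5 window holds it in both orientations, 226 and 82 bases before the RefSeq start, and both copies are the longer form GTGGGAA on 1 strand. The Hey2 window holds 1 GTGGGAA, 207 bases before the RefSeq start, which lies 18 bases from the start of the GENCODE transcript measured here. No TGGGAA was found on either strand of the Hes6 window (1 of 2 RefSeq windows for this gene) or of the Nrarp window (chr2:25180508-25180757, plus strand). GTGGGAA contains TGGGAA, so the longer form is counted under both. On both strands, TGGGAA occurs in 21.6% and GTGGGAA in 5.4% of 32851 RefSeq promoter windows of this length. Of letters linked to BMP-responsive SMAD proteins, GGCGCC occurs 4 times in the Hes5 window (9.6% of all windows hold it). GGAGCC occurs 1 time each in the Hey2 and Hes6 windows (26.0% of windows). The shorter SMAD box GTCTG occurs 4 times in the Nrarp and 1 time in the Hes6 window (42.2% of windows). The Nrarp window also has 1 E-box CACGTG (6.0%), and the Nrarp and Hes6 windows have 2 and 1 N-box letters CACNAG (36.7%), the kind that Hes proteins bind. These are matches of letters, and binding was not measured. Hes5 and Hey2, whose windows hold GTGGGAA, did not exceed 0.322 TPM in any library.

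Libraries held an estimated 48012828 to 58002740 reads. The median log2 change of all tested loci was within 0.02 of 0 for each BMP comparison. Markers of muscle stem cells and myoblasts were present throughout, with summed levels of 1261 to 2738 TPM, although Calcr, a marker of quiescent satellite cells, did not exceed 0.279 TPM and Pax7 lay between 11.1 and 16.9 TPM. Markers of differentiating muscle, with Myog at 1301 and 2154 TPM in vehicle_a, were high in the first experiment. Endothelial markers summed to 2.34 to 4.35 TPM, with 3 of 10 listed at 0 in all libraries, and immune markers to 1.19 to 2.26 TPM, with 2 of 6 at 0. In bulk RNA, fewer cells of a type and less RNA per cell cannot be told apart. A two-sided exact permutation test of 2 libraries against 2 cannot give a p below 0.33, so tests come from limma, fitted to log2(TPM + 0.5) over all tested loci with Benjamini-Hochberg adjustment and a threshold of 0.05. Because each isolation gave both a vehicle and a stimulated library, a second fit takes the isolation as a block and is printed beside the first where it changes a call.

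After 1 h of either ligand, Hes1 was the member that moved most, Hey1 stood higher by a smaller factor, and Heyl and Hes6 stood slightly higher in all 4 isolations. Of the 5 tested members, 4 were higher than their own vehicle in all 4 isolations, where 8.19% of all tested loci were. The exception was Nrarp, higher in 3 of 4. Isolations 48 and 54 both had a higher level with BMP4 for all 5 members, and for 28.3% of tested loci. Isolations 75 and 77 both had a higher level with BMP6 for 4 of the 5, and for 26.7% of loci. Hes1 was 5.14 to 10.9 times its vehicle level, Hey1 1.35 to 3.15 times, Heyl 1.17 to 1.55 times and Hes6 1.03 to 1.44 times. Both BMP4 libraries lay above both vehicle_a libraries for 2 of the 5, Hes1 and Hey1, against 10.3% of tested loci. Both BMP6 libraries lay above both vehicle_b libraries for 3 of the 5, Hes1, Hey1 and Heyl, against 10.6%. Hes1 and Hey1 had no overlap with either ligand, against 2.02% of loci. Without the block, limma called 0 of the 5 for BMP4, where 0.0237% of tested loci were called, and 0 of the 5 for BMP6, where 0.0118% were called. Of the 5, 2 had an unadjusted p under 0.05 in each comparison (Hes1 and Hey1), and voom on estimated reads also called 0. In these limma fits Hey1 ranked 324th by p for BMP4 and 44th for BMP6 among 16908 tested loci. With the isolation as block, 1 of the 5 was called for BMP4 (Hes1, against 0.633% of loci, or 0.544% in the higher direction). For BMP6 it was 2 (Hes1 and Hes6, against 0.148% of loci, or 0.136% in the higher direction).

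**Figure D1:**
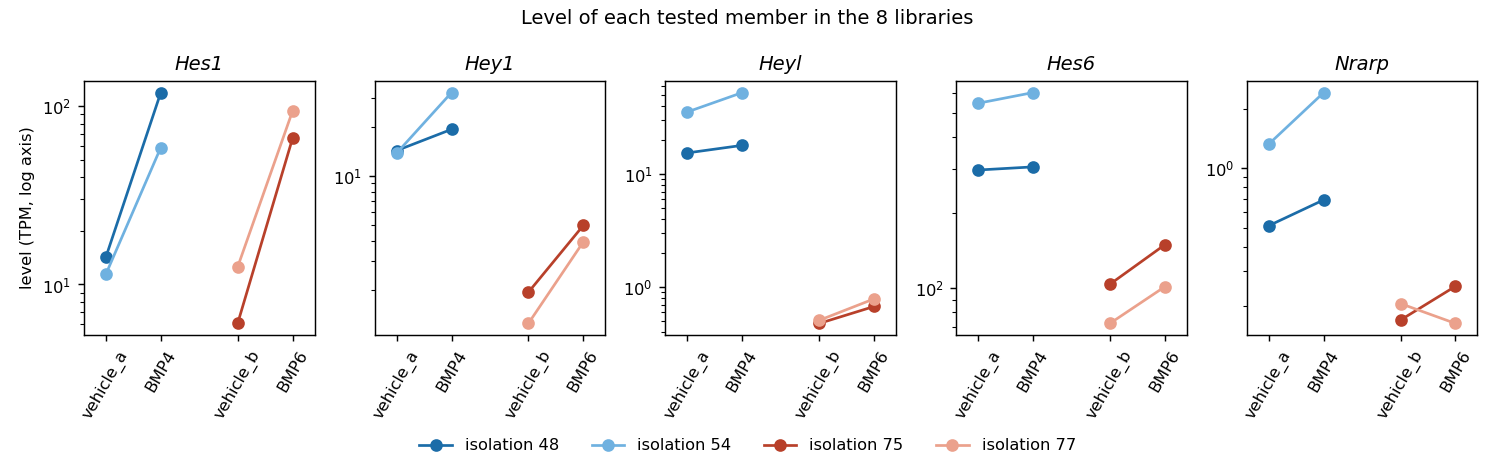
Level of Hes1, Hey1, Heyl, Hes6 and Nrarp in TPM (y axis, log scale, a separate range in each panel) in vehicle_a, BMP4, vehicle_b and BMP6 (x axis). Each point is 1 library and each line joins the vehicle and the stimulated library of an isolation. Every line goes up except that of Nrarp in isolation 77, and the Hey1, Heyl and Hes6 points of the second experiment all lie below those of the first.

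Hes1 encodes the founding repressor of the family (merged_LIST.9582, chr16:29884158-29886614, plus strand, GRCm39). In isolation 48 it stood at 14.2 TPM in vehicle and 119 TPM after BMP4, and in isolation 54 at 11.4 and 58.7 TPM. In isolation 75 it stood at 6.04 TPM in vehicle and 66.1 TPM after BMP6, and in isolation 77 at 12.5 and 94.0 TPM. All 4 stimulated libraries lay above all 4 vehicle libraries, and the smallest stimulated value was over 4 times the largest vehicle value. These levels rest on 337 to 834 estimated reads in vehicle and 3177 to 6733 in stimulated libraries. Group means were 12.8 ± 1.99 TPM in vehicle_a and 89.01 ± 42.9 TPM with BMP4, and 9.28 ± 4.59 TPM in vehicle_b and 80.03 ± 19.8 TPM with BMP6 (SD, n = 2 each).

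With the isolation as block Hes1 rose by 2.67 on the log2 scale for BMP4 (SE 0.20, 95% interval 2.16 to 3.18, limma adjusted p = 0.0226). For BMP6 it rose by 3.10 (SE 0.20, interval 2.59 to 3.62, adjusted p = 0.0302). Among 16908 loci these were the 10th and the 8th largest log2 changes. Without the block the SE was 0.44 for each, with adjusted p = 0.367 for BMP4 and 0.338 for BMP6. Without isolation 48 or 54 the blocked BMP6 call held (limma adjusted p 0.019 and 0.0191). The BMP4 call also passed in these fits, but each leaves 1 pair given BMP4, so the spread comes from the BMP6 pairs. For BMP4 the adjusted p was 0.0546 without isolation 75 and 0.0502 without isolation 77, neither of which was given BMP4. For BMP6 it was 0.252 without isolation 75 and 0.146 without isolation 77, each of which leaves 1 pair given BMP6.

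The average of the BMP4 and BMP6 log2 changes of Hes1 was 2.89, the 3rd largest of all tested loci. The average was not called without the block (SE 0.31, limma adjusted p = 0.0659), except when BMP4 replicate 2 was left out (3.14, adjusted p = 0.0477). It was called with the block (SE 0.14, limma adjusted p = 0.00653), and also when any 1 of the 4 isolations was left out of that fit (adjusted p 0.0095 to 0.0411). Of the 5 members, 2 were called in the blocked average, Hes1 and Hes6, against 0.674% of loci, or 0.627% in the higher direction. Without the block 0 were called, against 0.071% of loci, by limma and by voom, and 2 had an unadjusted p under 0.05.

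**Figure D2:**
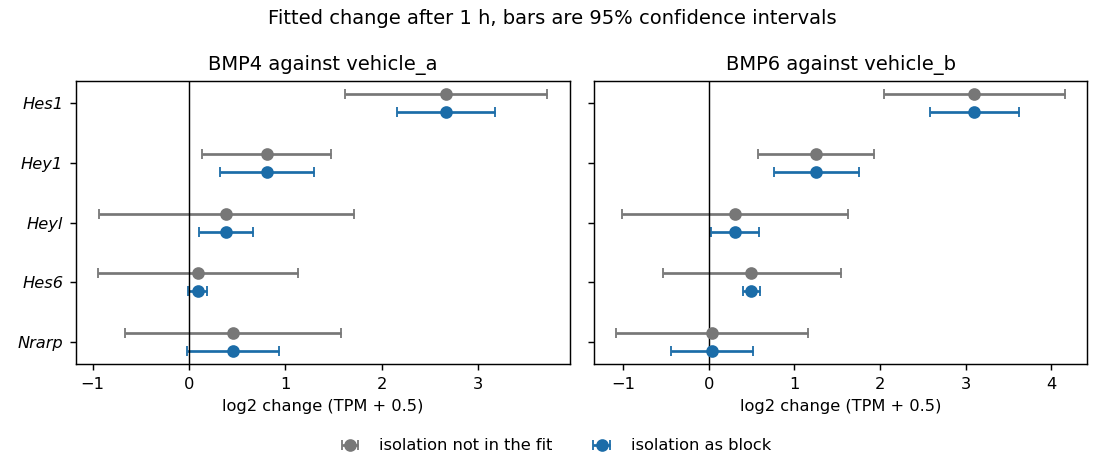
Fitted log2 change of TPM + 0.5 (x axis) of 5 members for BMP4 against vehicle_a (left) and BMP6 against vehicle_b (right), from limma without the isolation (grey) and with it as a block (blue). Points are estimates and bars 95% confidence intervals. Hes1 lies farthest right in both panels, at 2.67 and 3.10, and the blocked intervals are narrower than the others throughout.

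The reads of Hes1 came from its 1 annotated transcript, and the coverage of its 4 exons can be read separately. Coverage was higher after stimulation in all 4 exons of all 4 isolations, 16 of 16 exon values. The ratio to vehicle ranged from 4.86 (exons 1 and 4 in isolation 54) to 15.2 (exon 2 in isolation 75). Exon 1, the most 5′, changed by factors of 9.42, 4.86, 11.3 and 8.15 in isolations 48, 54, 75 and 77, and the long last exon by 7.85, 4.86, 10.1 and 6.99. The change was thus spread along the spliced transcript and was not that of a single exon.

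Hes5 encodes the close relative of Hes1 that is prominent in neural progenitors (chr4:155045380-155046828, plus strand, GRCm39). It was listed at 0 in 7 of 8 libraries and at 0.0417 TPM in BMP4 replicate 2, which corresponds to about 2 estimated reads. At these depths 3 reads would give 0.059 to 0.068 TPM, the upper limit that a library with 0 reads allows. That limit covers counting error only. The Hes5 window printed above, with its pair of GTGGGAA letters, therefore belongs to a gene with next to no reads in either experiment. Gm20421, which overlaps Hes5 on the other strand, was listed at 0 in all 8 libraries.

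Hey1 encodes a Hey-type repressor known from blood vessel development and as a Notch target in satellite cells (merged_LIST.14700, chr3:8728419-8732316, minus strand, GRCm39). It stood at 14.3 TPM in vehicle and 19.3 TPM after BMP4 in isolation 48, and at 13.8 and 32.4 TPM in isolation 54. In the second experiment it stood at 1.94 TPM in vehicle and 4.98 TPM after BMP6 in isolation 75, and at 1.25 and 3.95 TPM in isolation 77. In each experiment the stimulated libraries lay above the vehicle libraries without overlap, while vehicle_a libraries lay above the BMP6 libraries. The ratios were 1.35, 2.35, 2.56 and 3.15 in isolations 48, 54, 75 and 77.

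The fitted log2 change of Hey1 was 0.81 for BMP4 and 1.25 for BMP6, with an SE of 0.28 and limma adjusted p = 1 for each. With the block the SE was 0.19 and the adjusted p 0.138 for BMP4 and 0.22 for BMP6, so Hey1 was not called for either ligand. Leaving out isolation 48 in the blocked fit gave adjusted p = 0.0468 for BMP6. For BMP4 the blocked voom fit on estimated reads gave a log2 change of 0.86 and adjusted p = 0.0232. The average of both responses was 1.03 (SE 0.20, adjusted p = 0.386). In the blocked average the SE was 0.14 and the adjusted p 0.0742, which became 0.0183 without isolation 48, 0.0496 with libraries scaled to the same median and 0.0263 with voom.

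Coverage of all 5 Hey1 exons was higher after stimulation in all 4 isolations, 20 of 20 exon values. In isolation 48 the exon ratios lay between 1.11 and 1.40, and in isolation 54 between 1.98 and 3.32. In isolation 75 they lay between 1.66 and 3.24. In isolation 77 exon 2 had a ratio of 4.82 and exon 4 of 1.3, on coverage worth 1.35 and 2.66 TPM in vehicle.

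Hey2, known from the developing heart and arteries (chr10:30708355-30718797, minus strand, GRCm39), stayed between 0 and 0.322 TPM, on at most 30 estimated reads. It stood at 0.192 and 0.298 TPM in vehicle_a, at 0.202 and 0.322 TPM with BMP4, at 0.179 and 0.0319 TPM in vehicle_b, and at 0.133 and 0 TPM with BMP6. The groups of each experiment overlapped, and a change was not detectable at this depth. Endothelial markers, of cells in which Hey2 is abundant, were also near 0, with 9 of 10 below 1 TPM in all libraries.

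Heyl encodes the Hey-like repressor, a Notch target with known roles in satellite cells and in the mural cells of blood vessels (merged_LIST.17093, chr4:123127349-123143668, plus strand, GRCm39). It stood at 15.5 TPM in vehicle and 18.0 TPM after BMP4 in isolation 48, and at 35.7 and 53.0 TPM in isolation 54. In the second experiment it stood at 0.477 TPM in vehicle and 0.674 TPM after BMP6 in isolation 75, and at 0.508 and 0.787 TPM in isolation 77. The last 4 values rest on 82, 106, 83 and 127 estimated reads. Each isolation moved up, but isolations 48 and 54 differed from each other by more than BMP4 did from vehicle. The fitted log2 change was 0.39 for BMP4 and 0.31 for BMP6 (SE 0.55 and limma adjusted p = 1 for each). With the block the SE was 0.11 and the adjusted p 0.161 for BMP4 and 0.82 for BMP6. The voom fit with the block called BMP4 (log2 change 0.43, adjusted p = 0.0184). Without the block, the BMP4 value was -0.37 without BMP4 replicate 2 and -0.20 without vehicle_a replicate 1. Each of these fits breaks a pair, so its value also holds the difference between isolations 48 and 54.

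Nrarp, the feedback inhibitor of Notch (merged_LIST.12987, chr2:25070770-25073351, plus strand, GRCm39), is a gene of 1 exon and was scarce. In isolation 48 it stood at 0.511 TPM in vehicle and 0.691 TPM after BMP4, and in isolation 54 at 1.33 and 2.42 TPM. In isolation 75 it stood at 0.170 TPM in vehicle and 0.252 TPM after BMP6, and in isolation 77 at 0.206 and 0.163 TPM. Estimated reads ran from 53 to 231 in the first experiment and from 15 to 23 in the second. Nrarp was thus higher in both isolations given BMP4 and in 1 of 2 given BMP6. The fitted log2 change was 0.46 for BMP4 (SE 0.47) and 0.04 for BMP6 (SE 0.47), with limma adjusted p = 1 for each. With the block the adjusted p was 0.264 for BMP4 and 1 for BMP6. Without the block the BMP4 value was -0.19 without BMP4 replicate 2, and the BMP6 value -0.05 without BMP6 replicate 1. Each of these fits breaks a pair, so its value also holds the difference between the isolations of that experiment. Gm38287 overlaps Nrarp on the other strand and was listed at 0 in all 8 libraries.

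Hes6 (merged_LIST.899, chr1:91339205-91340944, minus strand, GRCm39) was the most abundant member in every library. In isolation 48 it stood at 296 TPM in vehicle and 305 TPM after BMP4, and in isolation 54 at 547 and 603 TPM. In isolation 75 it stood at 104 TPM in vehicle and 149 TPM after BMP6, and in isolation 77 at 72.3 and 101 TPM. The BMP4 ratios were 1.03 and 1.10, and the BMP6 ratios 1.44 and 1.40. Groups overlapped in both experiments.

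With the isolation as block Hes6 rose by 0.50 on the log2 scale for BMP6 (SE 0.04, 95% interval 0.40 to 0.60, limma adjusted p = 0.0441). That call was lost without isolation 75 (adjusted p = 0.46) and without isolation 77 (0.392). For BMP4 the blocked log2 change was 0.09 (SE 0.04, interval -0.01 to 0.19, adjusted p = 0.27). Without the block the SE was 0.43 and the adjusted p 1 for each ligand. The unblocked BMP4 value was -0.35 without vehicle_a replicate 1 and -0.40 without BMP4 replicate 2. Both of these fits break a pair, so their values also hold the difference between isolations 48 and 54. The blocked average of both was 0.30 (SE 0.03, adjusted p = 0.0287), and it was not called without isolation 54 (0.0654), 75 (0.215) or 77 (0.199). Exon by exon, coverage was higher in 8 of 8 exon values with BMP6, by factors of 1.165 to 1.46. With BMP4 it was higher in 3 of 4 exons in isolation 48 and 2 of 4 in isolation 54, with ratios of 0.878 to 1.14. The summed level of 6 markers of differentiating muscle, cells in which Hes6 is known to be induced, was 453 TPM in vehicle and 571 TPM after BMP6 in isolation 75, and 610 and 606 TPM in isolation 77. All 6 of these markers had positive fitted log2 changes for BMP6, with a median of 0.15, and 0 were called. In isolation 77, however, Myog, Mymk, Myh3 and Tnnt3 were lower with BMP6 than with vehicle, while Ckm and Acta1 were higher. For BMP6 by limma 0 of the 6 had an unadjusted p under 0.05 without and 1 with the block, and voom called 0 in both. For BMP4 0 of these 6 markers had a positive fitted log2 change, with a median of -0.08, and 0 were called. Their part in the level of Hes6 was not tested.

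**Figure D3:**
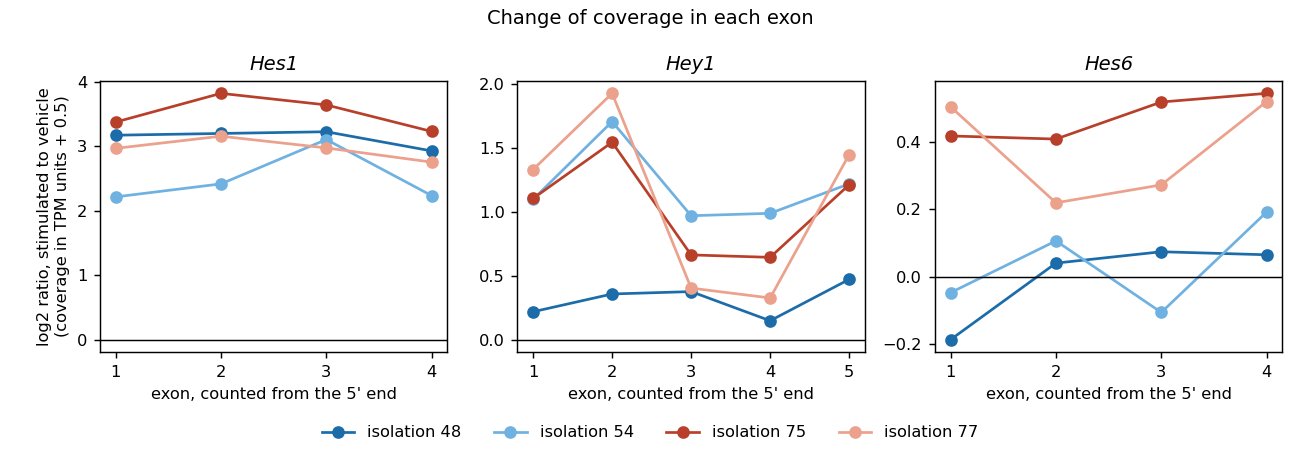
Log2 ratio of stimulated to vehicle coverage (y axis, coverage scaled to TPM units with 0.5 added) for each exon counted from the 5′ end (x axis) of Hes1, Hey1 and Hes6, with a separate range in each panel. Each line is an isolation, 48 and 54 given BMP4 and 75 and 77 given BMP6. All Hes1 and Hey1 points lie above 0, whereas 3 of the 8 Hes6 points with BMP4 lie below 0.

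Because TPM are corrected for length, the makeup of the family can be read in each library. The summed level of the 7 genes went from 341 to 462 TPM in isolation 48, from 609 to 750 TPM in isolation 54, from 112 to 221 TPM in isolation 75 and from 86.8 to 200.2 TPM in isolation 77. Hes6 made up 83.3% to 92.2% of the sum in the 4 vehicle libraries and 50.6% to 80.4% in the stimulated ones. The share of Hes1 went from 4.18% to 25.8% in isolation 48 and from 1.87% to 7.82% in isolation 54. It went from 5.37% to 29.9% in isolation 75 and from 14.4% to 47.0% in isolation 77. Hes1 thus took up a larger part of the family's transcripts in every isolation, the smallest part being that of isolation 54, whose Hes6 level was the highest.

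The responses to BMP6 and BMP4, each against its own vehicle, did not differ past the threshold for any tested member in limma. The blocked difference, BMP6 minus BMP4, was 0.43 for Hes1 (95% interval -0.29 to 1.16, limma adjusted p = 0.544) and 0.44 for Hey1 (interval -0.26 to 1.14, adjusted p = 0.521). It was 0.41 for Hes6 (interval 0.27 to 0.55, adjusted p = 0.235), -0.08 for Heyl (interval -0.48 to 0.31, adjusted p = 0.845) and -0.42 for Nrarp (interval -1.10 to 0.26, adjusted p = 0.534). Without the block, adjusted p was 1 for all 5, and the interval for Hes1 ran from -1.05 to 1.92. In both fits 0 of 5 members and 0% of loci were called, with 0 members at an unadjusted p under 0.05 without the block and 1, Hes6, with it. The blocked voom fit called Hes6 (0.40, adjusted p = 0.047), and unblocked voom called 0. These intervals do not show that the ligands act alike, and a larger response of Hes1 to BMP6 by 1 log2 unit lies inside them.

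The unstimulated cultures of the 2 experiments differed in 3 of 5 tested members. Hes6, Hey1 and Heyl were lower in vehicle_b than in vehicle_a. The log2 difference, vehicle_b minus vehicle_a, was -2.21 for Hes6 (SE 0.43, limma adjusted p = 0.0195), -2.81 for Hey1 (SE 0.28, adjusted p = 0.00569) and -4.60 for Heyl (SE 0.55, adjusted p = 0.0074). Hes1 did not pass (log2 difference -0.52, SE 0.44, adjusted p = 0.381), nor did Nrarp (-0.98, SE 0.47, adjusted p = 0.148). The level of Heyl was 25.6 ± 14.3 TPM in vehicle_a and 0.492 ± 0.022 TPM in vehicle_b (SD, n = 2 each), and only 6 of 16908 loci had a more negative difference. The ratio of vehicle_a to vehicle_b means was 52 for Heyl, 8.78 for Hey1, 4.9 for Nrarp, 4.79 for Hes6 and 1.38 for Hes1. Vehicle_a libraries lay above vehicle_b libraries without overlap for 4 of the 5 tested members, against 38.8% of tested loci. Of these, Nrarp passed the filter of 0.5 TPM only through the first experiment, so the filter favoured its direction. Its means were 0.92 TPM in vehicle_a and 1.56 TPM with BMP4, against 0.188 TPM in vehicle_b and 0.207 TPM with BMP6. Hey2, which was not tested, also had no overlap. Between these groups 27.2% of loci were called and 16.6% were called lower, so calls were common in this contrast. All 3 member calls were lost when either vehicle_b library was left out (adjusted p 0.0524 to 0.123), when 12 loci in all were called without replicate 1 and 5 without replicate 2. Without vehicle_a replicate 2 Hes6 was not called (-1.77, adjusted p = 0.0977), and 420 loci in all were.

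**Figure D4:**
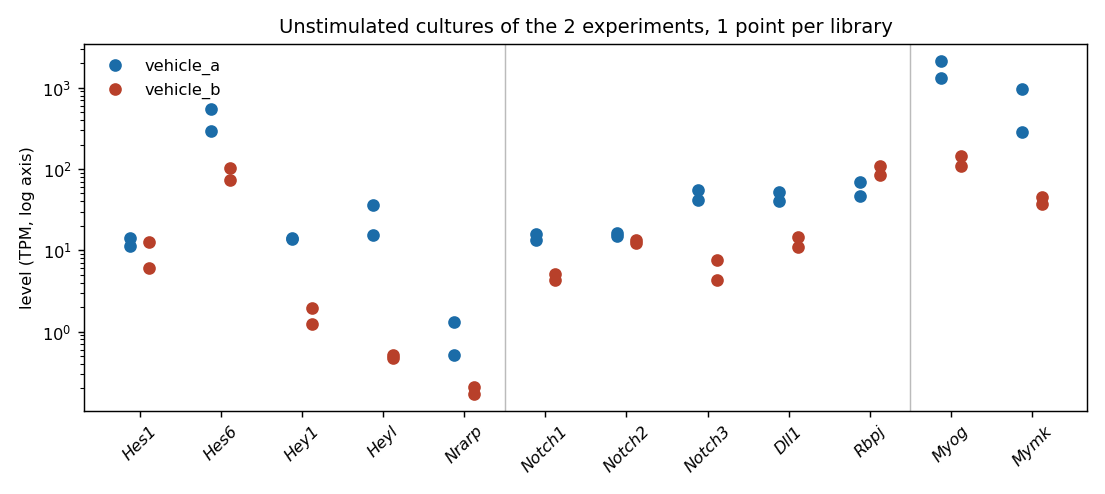
Level in TPM (y axis, log scale) of 5 members, 5 Notch pathway genes and 2 muscle differentiation genes (x axis) in the 2 vehicle_a (blue) and 2 vehicle_b (red) libraries. Each point is 1 library. The colours overlap for Hes1 and are apart for the other members, and Myog and Mymk are apart in the same direction.

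Markers of other cells and states moved with the same contrast. The 6 markers of differentiating muscle, Myog, Mymk, Myh3, Ckm, Acta1 and Tnnt3, were all called lower in vehicle_b. Their sum was 4210 and 12881 TPM in vehicle_a and 453 and 610 TPM in vehicle_b, and 0 of the 6 were listed at 0. Of 8 markers of pericytes and smooth muscle, cells that also express Heyl, 6 were tested. Called lower were 4, Acta2 (-4.15), Pdgfrb (-3.18), Abcc9 (-3.06) and Mcam (-0.99), and 0 were called higher. The sum of the 8 was 758 and 1460 TPM against 67.8 and 80.2 TPM. Acta2, which differentiating myoblasts also express, made up 719 and 1395 TPM of the vehicle_a sums. Pdgfrb stood at 4.07 and 10.4 TPM in vehicle_a and 0.294 and 0.266 TPM in vehicle_b. Abcc9 stood at 2.73 and 12.5 TPM against 0.242 and 0.316 TPM. The pericyte genes Rgs5 and Kcnj8 did not exceed 0.294 and 0.0822 TPM in any library. Of 10 tested markers of muscle stem cells and myoblasts 4 were called lower, Cdh15 (-2.23), Des (-1.27), Itga7 (-0.72) and Pax7 (-0.49). Called higher were 3, Cd34 (3.36), Sdc4 (3.17) and Myf5 (1.00). The 5 Schwann cell markers, of which 0 were called by limma or voom and 1 had an unadjusted p under 0.05, summed to 11.4 and 20.9 TPM in vehicle_a and 20.2 and 29.9 TPM in vehicle_b. Of 7 fibro-adipogenic markers 3 were tested and 2 called lower, with sums of 82.3 and 174.6 TPM against 37.8 and 31.1 TPM. All of these marker calls were lost without either vehicle_b library. Without vehicle_a replicate 2 only those of Myog, Acta2 and Cdh15 held. The 10 endothelial and 6 immune markers summed to 4.35 TPM or less in every library. The part of these cells and states in the levels of Hes6, Hey1 and Heyl was not tested. Within the first experiment, isolation 54 had the higher sum of differentiation markers and also the higher vehicle levels of Hes6, Heyl and Nrarp. Vehicle Hey1 (14.3 and 13.8 TPM) and Hes1 (14.2 and 11.4 TPM) were close in isolations 48 and 54. In the second experiment the sum was higher in isolation 77 (610 against 453 TPM), where vehicle Hes6 was lower (72.3 against 104 TPM). Vehicle Hey1 was also lower there (1.25 against 1.94 TPM), and vehicle Hes1 was higher (12.5 against 6.04 TPM). Vehicle Heyl (0.508 against 0.477 TPM) and Nrarp (0.206 against 0.170 TPM) were slightly higher in isolation 77.

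The order of the members therefore differed between the experiments. In vehicle_a it was Hes6 (421 TPM), Heyl (25.6 TPM), Hey1 (14.0 TPM), Hes1 (12.8 TPM), Nrarp (0.92 TPM), Hey2 (0.245 TPM) and Hes5 (0), and Hey1 and Hes1 overlapped. With BMP4 Hes1 took the second place at 89.01 TPM, and Heyl (35.5 TPM) and Hey1 (25.8 TPM) overlapped. In vehicle_b Hes1 (9.28 TPM) was already second to Hes6 (87.96 TPM), ahead of Hey1 (1.6 TPM) and Heyl (0.492 TPM), and Nrarp (0.188 TPM) and Hey2 (0.105 TPM) overlapped. With BMP6 the order was the same, with Hes1 at 80.03 TPM still below Hes6 at 125 TPM.

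The rest of the pathway was described from lists that were chosen with earlier results of these data known. Of 27 tested genes for receptors, ligands and their processing, 1 was called for BMP6 and 0 for BMP4 without the block. For BMP4 the unadjusted p was under 0.05 for 1 of them, and voom called 1. With the block 1 was called for each ligand. In each of these limma fits the called gene was Lfng, a Fringe glycosyltransferase that modifies Notch receptors. Over all 16908 tested loci, voom with the block called 85 for BMP6 and 1118 for BMP4. Of the 27 genes it called 1 for BMP6, again Lfng, and 7 for BMP4. Those were Lfng (1.85), Jag1 (0.77) and Mib1 (0.25), which were higher, and Notch3 (-0.45), Dtx4 (-0.35), Dtx2 (-0.33) and Mib2 (-0.29), which were lower. The list's median log2 change was -0.07 for BMP4 and 0.02 for BMP6, against -0.02 and 0 over all tested loci. Lfng stood at 4.21 and 3.11 TPM in vehicle_a, 12.7 and 13.6 TPM with BMP4, 1.196 and 1.24 TPM in vehicle_b, and 8.38 and 8.61 TPM with BMP6. It rose by 2.39 with BMP6 (SE 0.16, limma adjusted p = 0.0256), and by 1.73 with BMP4 in the blocked fit (SE 0.13, adjusted p = 0.0233). The BMP4 call was lost without isolation 75 or 77 (adjusted p up to 0.0889). The blocked BMP6 call (adjusted p = 0.0192) was lost without the same isolations (up to 0.255). The unblocked BMP6 call was lost in 5 of 8 fits without 1 library, those without BMP4 replicate 1 or any library of the second experiment (up to 0.366).

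The receptors did not pass in limma, with or without the block. Notch1 had log2 changes of -0.09 for BMP4 and 0.19 for BMP6, Notch2 of -0.07 and 0.02, and Notch3, itself a Notch target, of -0.45 and 0.07. Notch3 passed for BMP4 in the blocked voom fit (adjusted p = 0.0057), as did Jag1 (0.00417). Of the ligands, Dll1 had -0.03 and 0.27, and Jag1 0.66 and -0.13 (blocked limma adjusted p = 0.0597 and 0.994). Rbpj, the DNA-binding partner through which Notch acts on the members, had 0.02 and 0.07. Of the 13 tested genes of the RBPJ complex and its co-repressors, limma called 0 for either ligand in either fit. In the unblocked fit 0 had an unadjusted p under 0.05, and in the blocked fit 3 did for BMP4 and 0 for BMP6. Voom called 0 of the 13 with and without the block. Of 6 tested TLE co-repressors 0 were called by limma or voom in either fit, and 1 had an unadjusted p under 0.05, for BMP4 with the block. Of 9 other genes known to respond to Notch, among them Myc and Ccnd1 and, from the first list, Notch3 and Jag1, limma called 0 in either fit. For BMP4, 1 had an unadjusted p under 0.05 without and 7 with the block, where voom called 4 (and 1118 of 16908 loci in all). For BMP6 it was 0 in each of these. Their median log2 change was -0.14 for BMP4 and 0.01 for BMP6. Loci under the unadjusted threshold were common in the blocked BMP4 limma fit. There Heyl, which was under it, ranked 1673rd by p among 16908 tested loci, and Nrarp, which was not, ranked 3758th. The exact share of loci under it was not counted. The 3 among the 13 genes of the RBPJ complex are therefore not read as a response.

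Between the vehicles, 11 of the 27 receptor, ligand and processing genes were called lower in vehicle_b and 0 higher, where 16.6% of all loci were called lower, with a median difference of -0.38 against -0.01 over all tested loci. Voom called 9 of the 27. Notch3 differed by -2.94 (limma adjusted p = 0.00901), Dll1 by -1.82 (0.00869), Notch1 by -1.52 (0.0102) and Lfng by -1.26 (0.00863). Notch2 (-0.27, adjusted p = 0.144) and Rbpj (0.75, adjusted p = 0.0742) did not pass. All 11 calls were lost without either vehicle_b library. Those of Notch1, Notch3, Ncstn, Aph1a, Rfng, Numb, Dtx2 and Dtx4 were also lost without vehicle_a replicate 2. The calls of Ncstn, Rfng, Numb and Dtx2 were lost without either BMP6 library as well. Of the 9 other Notch-responsive genes 5 were called lower and 2 higher, Myc (2.29) and Ccnd1 (3.39). Of the 13 genes of the RBPJ complex 1 was called higher (Snw1) and 0 lower, and of the 6 TLE genes 1 higher and 2 lower.

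Of 6 Hes-related repressors outside the 7 genes, 2 were tested. Hes2, Hes3 and Helt were listed at 0 in all 8 libraries, and Hes7 did not exceed 0.0656 TPM. Bhlhe40, a related repressor known for its part in the circadian clock, stood at 16.5 and 19.9 TPM in vehicle_a and 83.3 and 82.2 TPM with BMP4. In the second experiment it stood at 24.1 and 34.6 TPM in vehicle_b and 39.96 and 54.4 TPM with BMP6. In the blocked fit it rose by 2.16 for BMP4 (SE 0.08, limma adjusted p = 0.00326), and for BMP6 the log2 change was 0.68 (SE 0.08, adjusted p = 0.103). Without the block the adjusted p was 0.0975 for BMP4 and 1 for BMP6. The blocked BMP4 call held without any 1 of the 4 isolations (adjusted p up to 0.0199). Its level with BMP4 was in the range of that of Hes1. Bhlhe41, its close relative, stood at 16.4 and 16.8 TPM in vehicle_a, 22.0 and 26.4 TPM with BMP4, 7.31 and 6.61 TPM in vehicle_b, and 11.6 and 13.6 TPM with BMP6. Its log2 changes of 0.52 and 0.81 did not pass in limma (blocked adjusted p = 0.122 and 0.17). Voom with the block called both genes for both ligands, with adjusted p = 0.00683 for Bhlhe40 and 0.0114 for Bhlhe41 with BMP6.

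Myogenic helix-loop-helix factors and known targets of the ligands serve as points of reference. Of 8 tested myogenic helix-loop-helix factors and their partners, 1 was called in the blocked fit for each ligand, Myf5, which fell by 1.17 for BMP4 (limma adjusted p = 0.00326) and by 0.70 for BMP6 (adjusted p = 0.0192). The BMP4 call held without any 1 isolation (up to 0.0257), and the BMP6 call was lost without isolation 75 or 77 (up to 0.302). Without the block 0 were called by limma and by voom, and 1 had an unadjusted p under 0.05 for each ligand. Voom with the block called 3 for BMP4, Myf5 (-1.18), Tcf3 (-0.32) and Msc (0.71), where 1118 of all loci were called. For BMP6 it called 2, Myf5 (-0.70) and Myod1 (0.42), where 85 of all loci were called. Of 10 tested BMP-SMAD targets all had positive log2 changes for both ligands, with medians of 1.05 for BMP4 and 1.69 for BMP6, and 5 and 3 were called in the blocked fit. Those called for both were Id1, Smad6 and Smad7, and Id4 (log2 change 1.25) and Nog (1.44) passed for BMP4, with 0.99 and 1.78 for BMP6 (limma adjusted p = 0.17 and 0.0511). Smad7, the inhibitory SMAD, had log2 changes of 3.02 and 2.35, and Id1, the inhibitor of helix-loop-helix factors, of 1.54 and 1.83. In the blocked fits the BMP4 call of Smad7 held without any 1 isolation, with the same limit of 1 pair, and those of Id1, Smad6, Id4 and Nog did not. None of the 3 BMP6 calls held without isolation 75 or 77, where 0 and 2 loci in all were called. Without the block limma called Smad7 for BMP4 (adjusted p = 0.04), a call lost in 6 of 8 fits without 1 library (up to 0.197), all but those without a vehicle_a library, and 0 of the 10 for BMP6, where 8 had an unadjusted p under 0.05 and voom called 0. Voom with the block called 8 of the 10 BMP-SMAD targets for BMP4 and 9 for BMP6. The blocked log2 changes of Hes1, 2.67 and 3.10, were of the size of those of Smad7.

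Loci with the most similar profile were sought for each member with a mean of at least 1 TPM and an SD of log2(TPM + 0.5) of at least 0.5, which Hes1, Hes6, Hey1 and Heyl met. Likeness was the root mean square difference of log2(TPM + 0.5), centred on its mean over the 8 libraries, among 11299 named loci of at least 1 TPM. Values are differences in log2 units, with 0 for an identical shape, and libraries of an experiment share isolations, so the 8 points are not independent. Nearest to Hes1 were the homeobox gene Dlx3 (0.57), Smad7 (0.62), Lfng (0.65), the DNA-binding gene Arid3a (0.69) and the homeobox gene Dlx2 (0.69). Dlx3 stood at 0.721 to 2.19 TPM in the 4 vehicle libraries and at 6.96 to 7.66 TPM in the 4 stimulated ones, so its groups, like those of Hes1, did not overlap.

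Nearest to Hey1 were the forkhead gene Foxo6 (0.27), the kinase gene Sik1 (0.28), Tmem119 (0.33), Irx3 (0.40) and Wnt9a (0.41). Sik1 had the same pattern of a step between the experiments and one within them. It stood at 35.2 and 56.5 TPM in vehicle_a, 71.7 and 109.5 TPM with BMP4, 5.66 and 6.46 TPM in vehicle_b, and 18.6 and 18.2 TPM with BMP6. In the blocked fit Sik1 was called for BMP4 (log2 change 0.98, limma adjusted p = 0.0159) and BMP6 (1.53, adjusted p = 0.0121), and without the block the adjusted p was 1 and 0.723. The blocked BMP4 call was lost without isolation 48 or 54 (up to 0.0737) and the BMP6 call without isolation 75 or 77 (up to 0.128).

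Nearest to Heyl were Col6a1 (0.28), a collagen VI gene, Asb2 (0.28), Septin4 (0.33), the myoblast fusion gene Mymx (0.33) and the sarcomere gene Mybpc1 (0.35). Mymx stood at 186 and 471 TPM in vehicle_a, 139 and 450 TPM with BMP4, 8.26 and 15.5 TPM in vehicle_b, and 10.5 and 11.8 TPM with BMP6. Among the 5 loci nearest to Hes6 were the small heat shock gene Hspb8 (0.13), Sh3bgr (0.14), and Mapre3 and Mknk2 (0.18 each). Hspb8 stood at 349 and 682 TPM in vehicle_a and at 124 and 77.8 TPM in vehicle_b, close to the 296, 547, 104 and 72.3 TPM of Hes6. These loci were picked for their likeness to the member, so their patterns are a description only.

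**Figure D5:**
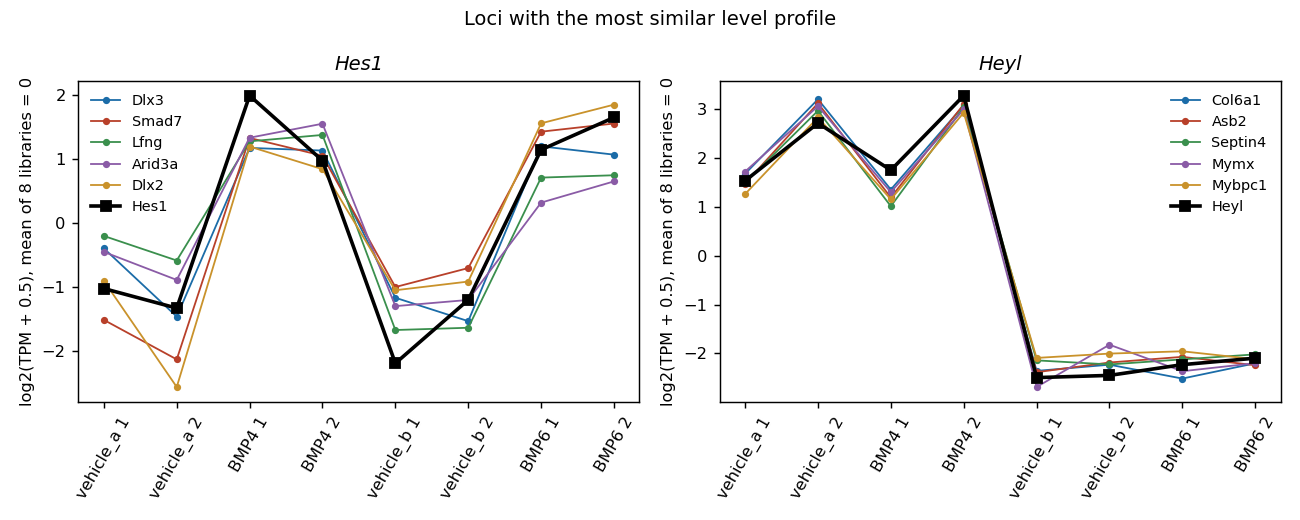
Profiles of Hes1 (left) and Heyl (right) in black and of their 5 nearest loci in colour, as log2(TPM + 0.5) centred on the mean of the 8 libraries (y axis), in each library (x axis, group and replicate). Lines only guide the eye between libraries. The Hes1 profile is high in the 4 stimulated libraries, whereas the Heyl profile is high in the 4 libraries of the first experiment.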

How the data were processed

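Poly(A) RNA from 8 cultures, 500 ng per library, was sequenced with a strand-specific kit as single-end reads of 50 bases, per the labels' protocols. Reads were aligned with STAR 2.7.11a and handled with SAMtools 1.17 on GRCm39, per the submitters' processing notes. StringTie 2.2.1 estimated the TPM values of each locus for the authors' own merged annotation, without a strand option, per the file headers. The deposited FPKM values came from the same StringTie runs, and were used only as an alternative for levels. The deposited coverage, mean read depth per base from StringTie, was multiplied by transcript length and divided by read length to estimate reads, and per exon was scaled to TPM units. TPM in the joint table matched the per-library tables in 55223 of 55223 rows (tolerance 1e-05). Replicate libraries of a group differed by a chi-square of 38.5 to 276.1 per locus, more than read sampling gives, so none was a repeat deposit.

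A minimum mean level of 0.5 TPM was set, and loci above it were tested with limma 3.58.1 (R 4.3.3) on log2(TPM + 0.5), with 4 group means, a trended variance prior, two-sided tests and Benjamini-Hochberg adjustment over all tested loci. Adding 0.5 understates changes of scarce genes. The script was tested on simulated data. The labels name the same isolation for a vehicle and a stimulated culture, so same-numbered cultures are paired. Their deviations from the group means correlated at 0.707 in the first and 0.455 in the second experiment, across loci. Alternatives were the isolation as block, other pseudocounts and filters, scaling to the same median, voom on estimated reads with trimmed-mean scaling, only the libraries of a comparison, and leaving out libraries or isolations. Named genes were all 7 members, listed genes that passed or were fixed by name, and the 5 nearest profiles, of which 1 locus is not reported here. The members and lists were chosen with earlier results of these data known. Adjusted p-values in the text are from limma.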

Additional observations from a re-analysis of the deposited data

Results flagged for a closer look

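Hey2 moved in opposite directions with the ligands, with each BMP4 library above and each BMP6 library below the vehicle library of its isolation. In the fit without a filter on low levels the log2 difference between the responses, BMP6 minus BMP4, was -0.13 (SE 0.25, 95% interval -0.75 to 0.50, limma adjusted p = 1). The values rest on 0 to 30 estimated reads per library, and the difference was not detectable at this depth.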

How the results depend on the processing

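With 2 libraries per group, calls depended on whether the isolation was a replicate block. Without it 0 of 5 members were called for BMP4, BMP6 and their average. With the replicate block 1, 2 and 2 were called, with scaling to the same median in addition 1, 2 and 3, with a pseudocount of 0.1 in addition 1, 2 and 2, and with voom in addition 3, 2 and 3. Leaving out an isolation from the blocked fit gave 0 to 1, 0 to 3 and 1 to 3. For the difference between the ligands the count was 0, and 1 in the blocked voom fit. Without the block, leaving out a library gave 0 to 1 calls for the average and 0 to 3, from 3, for vehicle_b minus vehicle_a. Over all loci the counts for BMP4, BMP6 and their average were 4, 2 and 12 without the block, 107, 25 and 114 with it, and 1118, 85 and 385 with block and voom, where the difference between ligands went from 0 to 73. The cause was not tested.

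No change of direction was found for Hes1, Hey1, Hes6 or Heyl against vehicle in any alternative that kept all 8 libraries. Leaving out a library breaks a pair, so unblocked values then also hold the difference between isolations. Leaving out a library from the unblocked fit gave log2 ranges of -0.40 to 0.58 for Hes6, -0.37 to 1.15 for Heyl (-0.20 without vehicle_a replicate 1, where Hes6 was -0.35) and -0.19 to 1.11 for Nrarp with BMP4. It gave -0.05 to 0.13 for Nrarp with BMP6, and for the average -0.03 to 0.73 for Heyl and -0.08 to 0.57 for Nrarp. For the difference between ligands it gave -0.07 to 0.94 for Hes1, -0.08 to 0.90 for Hes6, -0.84 to 0.68 for Heyl and -1.07 to 0.23 for Nrarp. The blocked Nrarp change with BMP6 was -0.09 without isolation 75. The Heyl difference between ligands was 0.09 with a pseudocount of 0.1 and 0.15 with voom, and in the blocked fits 0.09, 0.14 and, without isolation 54, 0.09. Mean levels in FPKM, another unit, were within 1 SD over libraries of those in TPM (182 FPKM and 272 TPM for Hes6). For Nrarp, Hey2 and Hes5, and for Heyl in the second experiment, few reads limit what can be seen.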
